A study of Mus musculus with 4 samples.

Results

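The mitochondrial ribosomal protein genes were taken as every row of the deposited count table whose symbol starts with Mrpl or Mrps followed by a number, leaving out symbols with -ps. They numbered 77 of 24411 genes, and all 77 passed the filter on low counts that left 13507 genes for testing. Messenger RNA had been sequenced from bone marrow pro-B cells, which are early B cell precursors, of C57BL/6 mice, sorted as B220+CD43+HSA+ (HSA is the surface antigen CD24). The 2 knockout mice (KO 51 and KO 63) were Tnpo3fl/fl mb1Cre and the 2 control mice (WT 55 and WT 69) were Tnpo3+/+ mb1Cre. All 4 mice therefore carried mb1Cre, in which the B-lineage gene Cd79a drives Cre, each library came from 1 mouse, and the labels give no age. Tnpo3 encodes transportin 3, a nuclear import receptor for serine- and arginine-rich splicing factors.

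Mitochondria keep their own ribosome, which translates the few mitochondrially encoded subunits of the respiratory chain and of the ATP synthase. Its rRNAs come from mitochondrial DNA, whereas all of its proteins are encoded in the nucleus, made in the cytosol and imported. Mrpl genes encode proteins of the large subunit, which holds the peptidyl transferase centre, and Mrps genes mostly those of the small subunit, which reads the mRNA. Some of its proteins have bacterial homologs, and others, which mitochondria added, surround an rRNA core that is shorter than the bacterial one.

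Total counts were 40647384 and 30440627 in KO 51 and KO 63, against 32697489 and 26211372 in WT 55 and WT 69. A member had between 225 and 4272 counts in a library. Tnpo3, the targeted gene, was at 79.7 and 68.8 CPM (counts scaled by library size) in KO 51 and KO 63, and at 159 and 148 CPM in WT 55 and WT 69, a log2 fold change of -1.05 ± 0.14 (SE), at an edgeR adjusted p of 0.0108. Without KO 63 that adjusted p was 0.0603. Markers of B-lineage and other blood cells also differed between the genotypes. Of 12 B-lineage markers 9 fell and 0 rose, with summed levels of 2061 to 2617 CPM in KO libraries and 8527 to 9449 CPM in WT libraries. Of 12 dendritic cell markers 11 rose (8954 to 11939 CPM in KO, 966 to 1941 CPM in WT), as did 7 of 10 natural killer cell markers (252 to 1010 CPM in KO, 32.6 to 39.4 CPM in WT) and 5 of 10 T cell markers (842 to 998 CPM in KO, 97.1 to 99.7 CPM in WT). The natural killer cell sum was 1010 CPM in KO 51 and 252 CPM in KO 63, of which Klrd1 made up 114 and 155 CPM. Gzma was at 231 and 14.7 CPM and Il2rb at 243 and 24.1 CPM in these mice. Most of the T cell sum in KO was Cd4, at 590 and 516 CPM in KO 51 and KO 63. Cd3d, Cd3e and Cd3g were at 14.9, 5.99 and 13.6 CPM in KO 51 and at 1.16, 0.631 and 2.22 CPM in KO 63. In the WT libraries these 3 were at 0.642 CPM or less. Of 11 granulocyte and monocyte markers 10 fell (54.2 to 190 CPM in KO, 2696 to 3537 CPM in WT), with Epx and Prss34 at 0 counts in KO 63, and of 7 erythroid markers 6 fell (750 to 1618 CPM in KO, 418 to 650 CPM in WT, most of it Tfrc). Tfrc did not pass and was at 747 and 1612 CPM in KO 51 and KO 63, against 574 and 360 CPM in WT 55 and WT 69. The 6 that fell were each at 2.42 CPM or less in KO libraries and at 1.56 to 32.6 CPM in WT libraries. The part of all these blood cell markers in the values below was not tested. In bulk libraries fewer cells of a type and less RNA per cell cannot be told apart.

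The promoters below are shown because 2 of them belong to members that passed the test and the third to the member with the highest level per kilobase, whose window holds the motif letters of factors known to act on nuclear genes of mitochondrial proteins. Each runs 5′ to 3′ over 300 bases, from 250 before to 50 after the annotated start, from RefSeq on GRCm38.p6. Capitals mark matches to GCATGCGC (the core of the motif of NRF1), CCGGAAGT (ETS factors such as GABPA), AAGATGGCG (YY1) or CACGTG (E-box), searched on both strands. The table of promoters held 68 of the 77 members, and Mrps34 was not among them.
Mrps6 (chr16:92058086-92058385, plus strand): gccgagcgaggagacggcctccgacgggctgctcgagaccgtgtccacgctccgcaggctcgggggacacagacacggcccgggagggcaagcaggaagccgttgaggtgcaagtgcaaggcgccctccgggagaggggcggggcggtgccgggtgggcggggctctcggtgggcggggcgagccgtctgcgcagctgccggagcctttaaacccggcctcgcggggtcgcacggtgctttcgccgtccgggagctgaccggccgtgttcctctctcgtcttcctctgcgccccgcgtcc
Mrpl49 (chr19:6057706-6058005, minus strand): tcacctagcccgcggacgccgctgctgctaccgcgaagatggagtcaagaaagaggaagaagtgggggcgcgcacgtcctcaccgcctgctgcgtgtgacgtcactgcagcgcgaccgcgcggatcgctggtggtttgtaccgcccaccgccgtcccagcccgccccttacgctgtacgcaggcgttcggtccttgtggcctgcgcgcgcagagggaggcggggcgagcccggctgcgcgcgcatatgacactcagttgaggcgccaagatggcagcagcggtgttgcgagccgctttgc
Mrpl33 (chr5:31613701-31614000, plus strand): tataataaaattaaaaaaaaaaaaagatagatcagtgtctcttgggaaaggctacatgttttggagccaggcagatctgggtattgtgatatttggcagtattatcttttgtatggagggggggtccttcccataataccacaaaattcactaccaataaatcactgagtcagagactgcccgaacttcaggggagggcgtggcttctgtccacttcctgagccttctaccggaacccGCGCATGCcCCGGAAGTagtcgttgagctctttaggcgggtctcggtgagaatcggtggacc
The Mrps6 and Mrpl49 windows held none of these letters, and that of Mrpl33 held the NRF1 core on the reverse strand next to an ETS match.

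Between KO and WT pro-B cell sorts, few members passed the test. At a false discovery rate of 0.05 by edgeR's quasi-likelihood test, 2 of the 77 rose (Mrps6 and Mrps34), 1 fell (Mrpl49) and 74 did not pass. These 3 were 3.9% of the members, against 22.2% of all genes tested, of which 11.3% were higher and 10.9% lower in KO. The median log2 fold change of the members was 0.11, with quartiles of -0.01 and 0.28 and a full range from -0.66 to 1.08. Over all genes tested the median was -0.02 and the quartiles were -0.45 and 0.45. Of the 77 members 55 (71.4%) had a log2 fold change above 0, against 48.7% of all genes tested. The log2 fold change was between -0.5 and 0.5 for 70 members (90.9%), against 53.3% of all genes tested. For 71 of the 77 the 95% interval of the log2 fold change lay within -1 and 1, and the median half-width of that interval was 0.43. At an unadjusted p under 0.05 there were 10 members (13% against 37.8% of all genes tested), and at a false discovery rate of 0.1 there were 5 (6.49% against 33%), Mrps16 and Mrpl2 beside the 3.

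**Figure D1:**
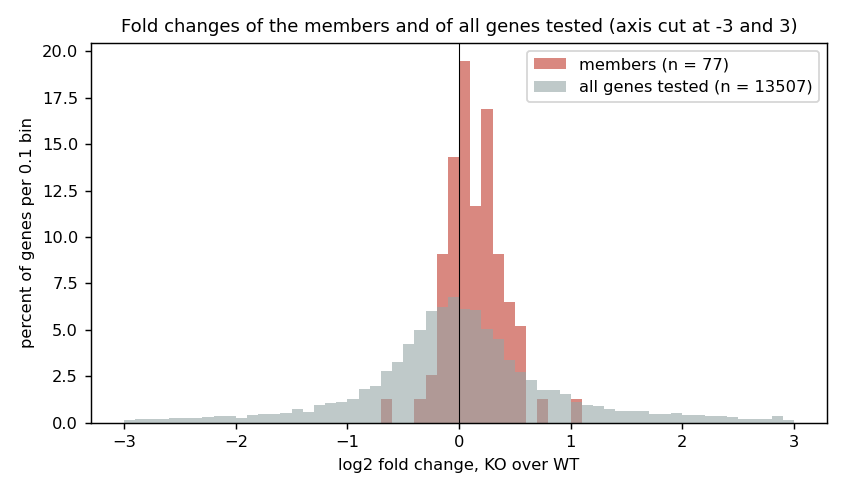
Histogram of log2 fold changes (KO over WT, x axis) for the 77 members and for all 13507 genes tested, as percent of each set per bin of 0.1 (y axis), with the axis cut at -3 and 3. The members lie between -0.66 and 1.08, around a median of 0.11.

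Among the members that rose, Mrps6 had the largest fold change. It encodes bS6m, a small-subunit protein with a bacterial homolog. Its gene (chromosome 16, 92058336 to 92112227, plus strand) was at 16.2 and 18.2 CPM in KO 51 and KO 63, and at 7.79 and 8.46 CPM in WT 55 and WT 69. Both KO mice were above both WT mice, and Mrps6 was the member with the lowest CPM in WT. The log2 fold change was 1.08 ± 0.22 (SE), and edgeR gave an adjusted p of 0.0275. Without KO 51 it was 1.16 with an adjusted p of 0.0832, and without KO 63 it was 0.9997 with an adjusted p of 0.129. In the GENCODE M21 annotation of GRCm38, 159 of its 846 exon bases (18.8%) are also exons of Slc5a3, a myo-inositol transporter gene on the same strand. Slc5a3 was at 10.1 and 14.6 CPM in KO 51 and KO 63, against 10.9 and 6.88 CPM in WT 55 and WT 69, a log2 fold change of 0.47 ± 0.34 with an adjusted p of 0.37 by edgeR. Reads from the shared bases cannot be assigned to either gene.

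Mrps34 encodes mS34, a small-subunit protein without a bacterial counterpart that is needed for a stable small subunit. Its gene (chromosome 17, 24895120 to 24896289, plus strand) was at 41.9 and 40.8 CPM in KO 51 and KO 63, and at 22.8 and 28.1 CPM in WT 55 and WT 69. The KO mice lay close together and above both WT mice. The log2 fold change was 0.70 ± 0.18 (SE), and the adjusted p of 0.048 by edgeR was close to the threshold. It did not pass without TMM scaling (adjusted p of 0.0543), without WT 55 (0.0835), without KO 51 (0.189) or without KO 63 (0.176), with log2 fold changes between 0.59 and 0.72 in these fits.

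Mrpl49 was the member that fell. It encodes mL49, a large-subunit protein that mitochondria added. Its gene (chromosome 19, 6053630 to 6057755, minus strand) was at 56.2 and 50.6 CPM in KO 51 and KO 63, and at 90.1 and 78.4 CPM in WT 55 and WT 69. Both KO mice were below both WT mice, and the log2 fold change was -0.66 ± 0.15 (SE), at an edgeR adjusted p of 0.0336. It was -0.52 without WT 55, -0.74 without KO 51 and -0.58 without KO 63, with adjusted p-values of 0.088, 0.114 and 0.215. Of its 1764 exon bases, 91 (5.16%) are shared with exons on the opposite strand of Syvn1, the ubiquitin ligase gene of degradation from the endoplasmic reticulum. Syvn1 moved in the same direction, with 164 and 121 CPM in KO 51 and KO 63, against 486 and 471 CPM in WT 55 and WT 69 (log2 fold change of -1.75 ± 0.19, adjusted p of 0.00751 by edgeR). The strand setting of the counting is not given, so reads of these bases may stand under either gene. Fau, a cytosolic ribosomal protein gene that starts 59 bases away in the other direction, was at 840 and 667 CPM in KO 51 and KO 63, against 694 and 737 CPM in WT 55 and WT 69, and did not pass (adjusted p of 0.805).

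**Figure D2:**
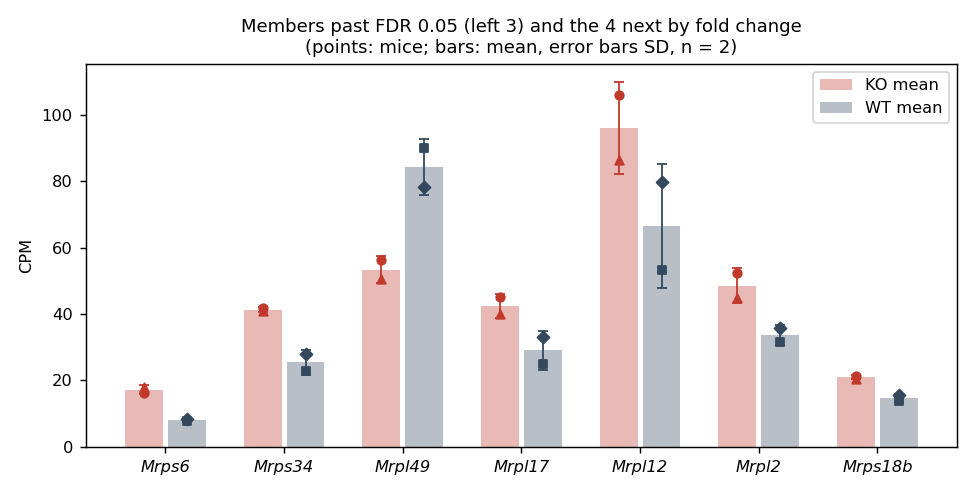
CPM (y axis) of the 3 members that passed and of the 4 with the next largest fold changes, KO left of WT in each pair; points are mice, bars means and error bars SD (n = 2). Mrps6 and Mrps34 are higher and Mrpl49 lower in both KO mice, and the mice of 1 genotype differ most for Mrpl12.

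The 4 members with the largest fold changes among those that did not pass were all at higher values in both KO mice. Mrpl17, which encodes bL17m beside the exit of the peptide tunnel, was at 45.1 and 39.9 CPM in KO 51 and KO 63, against 24.97 and 33.2 CPM in WT 55 and WT 69 (log2 fold change of 0.55 ± 0.21, adjusted p of 0.116 by edgeR). Mrpl12, which encodes bL12m of the stalk that recruits translation factors, was at 106 and 86.2 CPM in KO 51 and KO 63, against 53.4 and 79.7 CPM in WT 55 and WT 69. Its groups did not overlap, but WT 69 was nearer to KO 63 than to WT 55, and the adjusted p was 0.159 by edgeR for a log2 fold change of 0.53 ± 0.23. Mrpl17 and Mrpl12 passed without WT 69, at log2 fold changes of 0.77 and 0.85 (adjusted p of 0.0442 and 0.0204). Mrpl2, whose product uL2m lies near the peptidyl transferase centre, was at 52.3 and 44.8 CPM in KO 51 and KO 63, against 31.7 and 35.9 CPM in WT 55 and WT 69 (0.52 ± 0.17, adjusted p of 0.0874 by edgeR). With sex as a block, edgeR called Mrpl17, Mrpl12 and Mrpl2 (adjusted p of 0.0418, 0.0259 and 0.0372), in a fit that called 32% of all genes. Mrps18b, 1 of 3 genes of the S18 family, was at 21.3 and 20.5 CPM in KO 51 and KO 63, against 13.8 and 15.6 CPM in WT 55 and WT 69 (0.51 ± 0.20, adjusted p of 0.125 by edgeR).

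By subunit, 50 members encode large-subunit and 26 small-subunit proteins. The large-subunit genes include Mrps18a and Mrps30, whose products sit in the large subunit despite their symbols. Mrps36 was assigned to neither, since its product is now known as a part of the alpha-ketoglutarate dehydrogenase complex, and was at 14.0 and 13.6 CPM in KO 51 and KO 63, against 14.9 and 17.9 CPM in WT 55 and WT 69. Large-subunit genes had a median log2 fold change of 0.10 (0 higher, 1 lower, range -0.66 to 0.55), against 0.13 for the small subunit (2 higher, 0 lower, range -0.20 to 1.08). Over all genes tested 11.3% were higher and 10.9% lower, and the subunits were not tested against each other. Without KO 63 the small-subunit median was 0.21. Summed over the large subunit, the level was 2272 and 2117 CPM in KO 51 and KO 63, and 1973 and 2133 CPM in WT 55 and WT 69. Summed over the small subunit, it was 973 and 916 CPM in KO 51 and KO 63, and 805 and 888 CPM in WT 55 and WT 69. The small-subunit sum was thus higher in both KO mice, by less than the difference between the WT mice at its nearest pair, whereas the large-subunit sums of the genotypes overlapped.

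Members with a bacterial homolog had a median log2 fold change of 0.22 (48 genes, 1 higher, 0 lower), and those particular to mitochondria one of 0.06 (28 genes, 1 higher, 1 lower). The shares over all genes tested were 11.3% higher and 10.9% lower, and these groups were not tested against each other. Groups by place in the ribosome were formed after the values had been seen, and 0 of their genes passed by edgeR. The stalk genes Mrpl10, Mrpl11 and Mrpl12 spanned -0.01 to 0.53. The genes around the peptide exit (Mrpl17, Mrpl22, Mrpl23, Mrpl24, Mrpl45 and Mrpl47) spanned -0.05 to 0.55. The S18 family (Mrps18a, Mrps18b and Mrps18c) spanned 0.12 to 0.51.

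**Figure D3:**
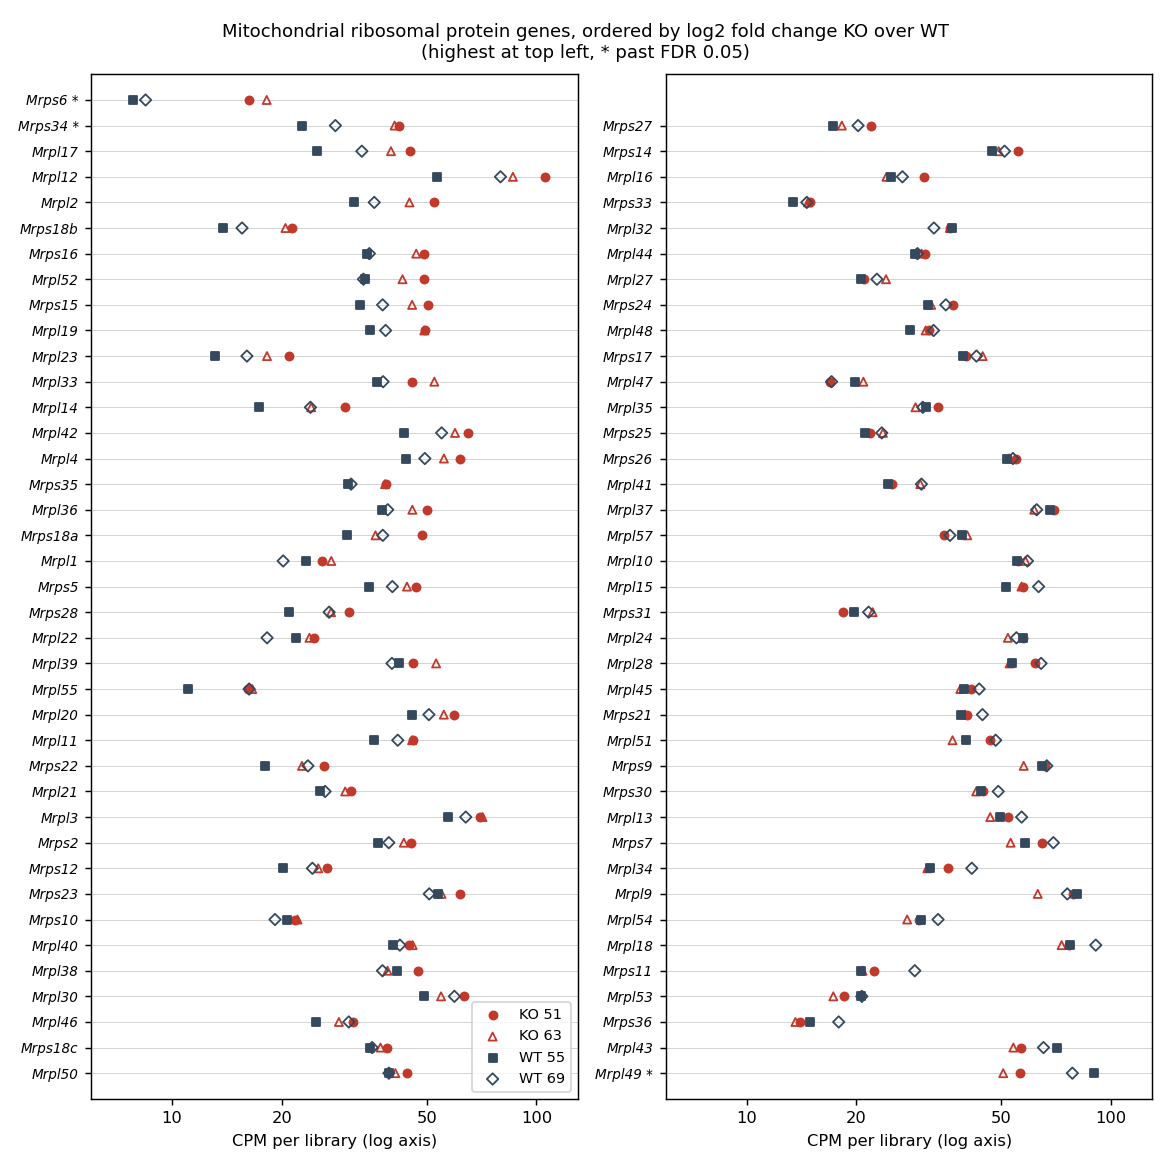
CPM of all 77 members in each library (x axis, log scale), ordered by log2 fold change KO over WT from Mrps6 at the top left to Mrpl49 at the bottom right; stars mark members past a false discovery rate of 0.05. For most members the 4 symbols lie within a narrow band, and WT 55 is the lowest of them for 47 members.

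The difference between genotypes was set beside the difference between mice of 1 genotype. All members together had 3259 and 3046 CPM in KO 51 and KO 63 (0.324% and 0.302% of all counts), and 2793 and 3039 CPM in WT 55 and WT 69 (0.279% and 0.308%). KO 63 and WT 69 were nearly equal. Of the 77 members 61 were lower in KO 63 than in KO 51, with a median log2 ratio of -0.08, and 61 were higher in WT 69 than in WT 55, with a median of 0.15. Over all genes tested these medians were 0.01 and 0.00. The median of 0.11 between genotypes lay between the sizes of these shifts within KO and within WT. Among the 4 pairs of a KO and a WT mouse, the median log2 ratio of the members was lowest for KO 63 over WT 69 (0.04, with 44 of 77 above 0) and highest for KO 51 over WT 55 (0.18, with 65 of 77 above 0). By Xist, KO 63 and WT 55 were females and KO 51 and WT 69 males. The mice of 1 genotype thus also differed in sex, and in both genotypes most members were higher in the male. Differences between mice and between sexes cannot be told apart here. The median log2 ratio of KO over WT was 0.15 for the female pair and 0.13 for the male pair. KO and WT values did not overlap for 41 members (53.2%, against 67.5% of all genes tested), 35 of them higher and 6 lower in KO. Of the 13507 genes tested, 4452 did not overlap and were higher in KO, and 4667 did not overlap and were lower. The order of the members' levels was much alike in the genotypes. Mean log2 of CPM plus 0.5 in KO and in WT had a Pearson correlation of 0.928 and a Spearman correlation of 0.931 across the 77 genes. The genes were measured in the same libraries, and each has the same length in both genotypes.

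**Figure D4:**
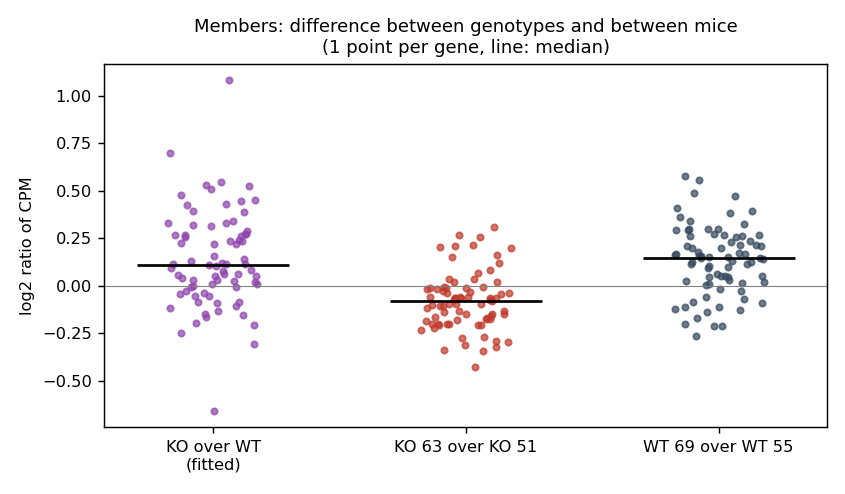
Log2 ratios of CPM (y axis) for the 77 members, 1 point per gene with the median as a line: fitted KO over WT, then 1 mouse over the other within KO and within WT. The medians are 0.11, -0.08 and 0.15. The first is fitted over all 4 libraries, whereas the others each compare 1 mouse with 1 mouse of the other sex by Xist.

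Levels of different members were compared per kilobase of the longest protein-coding transcript in GENCODE M21, which may differ from the exons the authors counted. Mean levels over the 4 libraries spanned 24.4-fold, with a median of 25.5 CPM per kilobase. The highest were Mrpl33 (90.3 CPM per kilobase), Mrpl52 (86.2), Mrpl42 (83.7) and Mrps21 (83.5). Their transcripts are short, from 463 to 666 bases. The lowest were Mrpl1 (6.80 CPM per kilobase), Mrpl47 (5.55), Mrpl17 (4.90) and Mrps25 (3.70), whose longest annotated transcripts have 3364 to 7300 bases, so that rank rests on the transcript chosen. Mrps25 also shares 58.2% of its exon bases with Nr2c2 on the opposite strand. Mrpl47 shares 13.4% with Actl6a and 4.70% with Ndufb5, also on the opposite strand. The strand setting is not given, so how reads of these bases were counted is not known. Mrpl33 was at 95.3 and 110 CPM per kilobase in KO 51 and KO 63, against 76.6 and 79.4 CPM per kilobase in WT 55 and WT 69, a fitted log2 fold change of 0.39 that did not pass (adjusted p of 0.141 by edgeR). Mrps21 was at 82.3 and 81.5 CPM per kilobase in KO 51 and KO 63, against 79.2 and 91.0 CPM per kilobase in WT 55 and WT 69.

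The members lie on 17 chromosomes, with 10 on chromosome 11 and 8 on chromosome 17. Their longest coding transcripts have a median of 1288 bases and 5 exons, against 3089 bases and 9 exons over the tested protein-coding genes. A protein-coding gene starts within 1000 bases upstream on the opposite strand for 18 members (23.4%), against 10.2% of tested protein-coding genes. Starts were taken as the outer ends of genes in GENCODE, so neighbours whose ends overlap there were not counted, among them Mrpl46 and Mrps11, which lie head to head without overlap in RefSeq. Of the 17 such partners that were tested, 2 fell and 0 rose by edgeR, where 10.9% of all genes tested fell and 11.3% rose. In 9 of 17 pairs member and partner had the same sign. The partners that fell were Klc4, a kinesin light chain gene beside Mrpl2 (log2 fold change of -0.94 ± 0.18, adjusted p of 0.0227), and Ska3, a kinetochore gene beside Mrpl57 (-1.04 ± 0.20, adjusted p of 0.024). Mrpl2 had a log2 fold change of 0.52 and Mrpl57 of 0.00, so neither fell with its partner. Exons of another annotated gene overlap those of 25 members (32.5%, against 30.5% of tested protein-coding genes). Shared bases were measured for the 14 members that overlap a gene tested under its GENCODE symbol. The bases that Mrpl43 shares with Twnk were not measured, since the counts hold Twnk under its older symbol Peo1. Peo1 was at 23.7 and 27.4 CPM in KO 51 and KO 63, against 27.9 and 27.6 CPM in WT 55 and WT 69. It did not pass (log2 fold change of -0.12, adjusted p of 0.665 by edgeR). Among the 14 the overlap was widest for Mrps25, which shares 58.2% of its exon bases with Nr2c2 on the opposite strand. Mrps7 overlaps Mif4gd, which fell (log2 fold change of -1.16, adjusted p of 0.0405 by edgeR), by 6.07% of its exon bases, and did not pass itself (-0.12).

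Among the 74 promoter windows of the 68 matched members, the ETS letters were found in 16.2%, against 3.89% of all 32851 windows in the table. The NRF1 core was found in 10.8% against 2.71%, the YY1 letters in 10.8% against 1.40%, and the E-box, which is its own reverse complement, in 9.46% against 7.15%. The 7 windows with the E-box came from 5 of the 68 members, since overlapping windows of Mrpl2 hold the same site. The members' windows also had more G and C, with a median of 58.5% against 52.7%, and more CG pairs, with a median of 21.5 against 7 per window. All the motif letters searched contain CG, and the windows compared were not matched for it. The 8 members with the NRF1 core had a median log2 fold change of 0.27 and the 60 without it of 0.09. For the ETS letters these medians were 0.08 (12 members) and 0.10 (56 members), for the YY1 letters 0.08 (8 members) and 0.10 (60 members), and for the E-box 0.26 (5 members) and 0.08 (63 members). The members with the NRF1 core spanned -0.15 (Mrpl9) to 0.55 (Mrpl17), and those with the E-box 0.01 (Mrpl37) to 0.52 (Mrpl2). Of the 3 members that passed by edgeR (3.9% of the members, against 22.2% of all genes tested), Mrps34 had no window. The windows of Mrps6 and Mrpl49 held none of the letters. For each motif 0 of the members with it therefore passed, which with so few calls says little about the motifs. A link between motif and fold change was not tested.

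The regulators known to act on such genes were read from a list of 11, of which 2 fell, 0 rose and 9 did not pass by edgeR. Over all genes tested 22.2% passed, with 10.9% lower and 11.3% higher in KO. Nrf1, which encodes nuclear respiratory factor 1, was at 72.3 and 56.2 CPM in KO 51 and KO 63, against 99.1 and 123 CPM in WT 55 and WT 69 (log2 fold change of -0.79 ± 0.19, adjusted p of 0.0386 by edgeR). Gabpb1, a subunit of the ETS factor GABP, was at 70.3 and 64.5 CPM in KO 51 and KO 63, against 108 and 127 CPM in WT 55 and WT 69 (-0.80 ± 0.15, adjusted p of 0.0202 by edgeR). Neither passed without KO 51 or without KO 63, with adjusted p-values of 0.0637 and 0.203 for Nrf1 and 0.0752 and 0.126 for Gabpb1, and Nrf1 was at 0.0587 without WT 69. Myc was at 166 and 165 CPM in KO 51 and KO 63, against 83.1 and 127 CPM in WT 55 and WT 69, and did not pass (0.66 ± 0.22, adjusted p of 0.0898 by edgeR). It passed without WT 69, at a log2 fold change of 0.996 and an adjusted p of 0.00608. The coactivator genes had log2 fold changes of -0.99 for Ppargc1a, 0.91 for Ppargc1b and 0.58 for Pprc1, with adjusted p-values of 0.0834, 0.0998 and 0.12 by edgeR. With sex as a block, Myc and Pprc1 passed upward and Hcfc1 downward (adjusted p of 0.0306, 0.0206 and 0.017 by edgeR). Gabpa, Sp1, Hcfc1, Esrra and Yy1 had log2 fold changes of -0.31, -0.30, -0.60, -0.11 and -0.07 and did not pass without the block.

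Of 93 genes in 6 lists on the rest of mitochondrial translation and gene expression, 1 rose, 4 fell and 88 did not pass by edgeR, with a median log2 fold change of -0.01. Of all genes tested, 11.3% rose and 10.9% fell. Among 6 mitoribosomal proteins with other symbols, namely Dap3, Ptcd3, Chchd1, Aurkaip1, Gadd45gip1 and Ict1, 0 passed in either direction (median of 0.17, range -0.22 to 0.28). Of 13 translation factors such as Tufm, the elongation factor gene, 0 passed (median of -0.01), and of 23 genes of ribosome assembly and rRNA modification 0 passed (median of 0.02). Of 20 genes for mitochondrial aminoacyl-tRNA synthetases and amidotransferase subunits 1 fell and 1 rose. Tars2, the threonyl-tRNA synthetase gene, was at 43.5 and 45.6 CPM in KO 51 and KO 63, against 70.8 and 99.6 CPM in WT 55 and WT 69 (-0.93 ± 0.20, adjusted p of 0.0297 by edgeR). Wars2, the tryptophanyl-tRNA synthetase gene, was at 21.1 and 26.3 CPM in KO 51 and KO 63, against 14.2 and 11.5 CPM in WT 55 and WT 69 (0.88 ± 0.23, adjusted p of 0.0488 by edgeR). Tars2 missed the threshold without KO 51 (0.114) and without KO 63 (0.111), and Wars2 without WT 69 (0.101), without KO 51 (0.0928), without KO 63 (0.231) and, just above the threshold, without TMM scaling (0.05).

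Polg, which encodes the catalytic subunit of the mitochondrial DNA polymerase, had the largest change among these 93 genes. It was at 48.3 and 53.3 CPM in KO 51 and KO 63, against 140 and 134 CPM in WT 55 and WT 69, a log2 fold change of -1.43 ± 0.13 (SE), at an edgeR adjusted p of 0.00601. Both KO mice were far below both WT mice. It was 1 of 20 genes of mitochondrial DNA transcription, replication and RNA handling, of which 1 fell, 0 rose and 19 did not pass (median of -0.11). Polrmt, the mitochondrial RNA polymerase gene, and Tfam, which packages mitochondrial DNA, had log2 fold changes of -0.32 and -0.15 and did not pass.

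**Figure D5:**
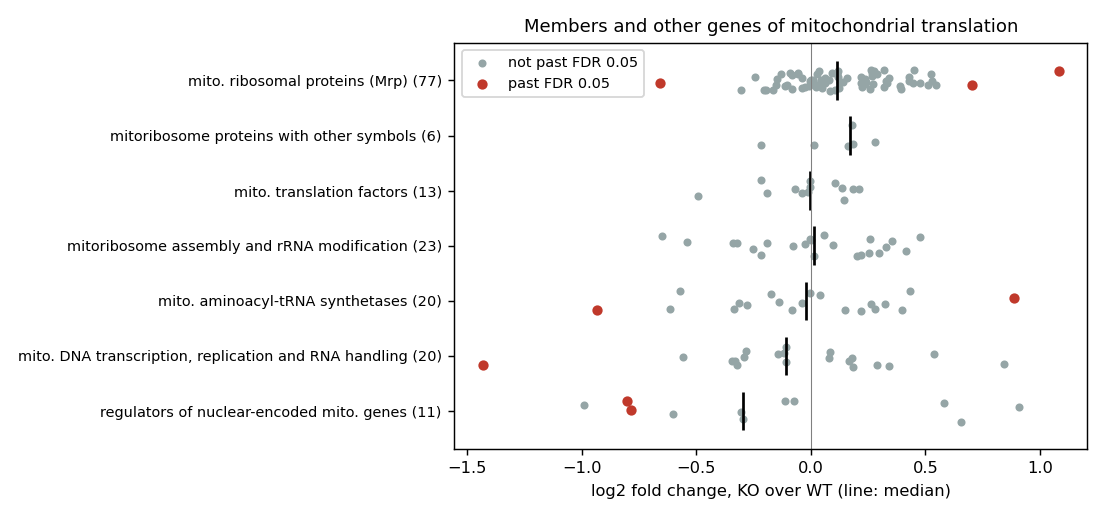
Log2 fold changes KO over WT (x axis) of the 77 members and of the genes in each of 6 lists (rows, number of genes in brackets), with the median as a line and genes past a false discovery rate of 0.05 in red. The members sit near 0 around 0.11, and Polg lies lowest at -1.43.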

How the data were processed

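The authors deposited raw counts per gene symbol and a second table of normalized signal, which differs from the counts by 1 scaling factor per library and was used in 1 alternative. The submitters' processing notes list as tools DESeq2, featureCounts, Subread 2.0.0, deepTools 3.3.2, SAMtools 1.10 and STAR 2.7.4a, and as builds mm10 and GRCm38. Per the labels' protocols, RNA came from an RNeasy kit and libraries from the NEBNext low input kit. Annotation, strand setting and treatment of multiply aligned reads were not given in the sources used here. Groups come from the sample titles, and the mice are the replicates (n = 2). Mean chi-squares per gene of 63.7 (KO) and 87.2 (WT) between mice showed no repeated library.

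Counts went into edgeR 4.0.16 under R 4.3.3: filterByExpr (minimum count 10, minimum total 15), TMM, and the quasi-likelihood F test on the 4 libraries with genotype as the only term. Benjamini-Hochberg adjustment ran over all 13507 genes, with a threshold of 0.05. CPM are counts per TMM-scaled library size, and a standard error is log2 fold change divided by root F. The procedure was tested on simulated data. Alternatives used limma 3.58.1, DESeq2 1.42.0, other scalings and filters, sex read from Xist as a block, and each library left out. Named genes were members past the threshold, the 4 next by fold change, the 4 highest and 4 lowest per kilobase, listed regulators, and pathway genes past the threshold. Other members, neighbouring genes, Tufm, Polrmt, Tfam and the groups by place in the ribosome were named after their values were seen. Members, lists and rules were chosen with earlier results of these data known. Coordinates are from RefSeq on GRCm38.p6, structures from GENCODE M21.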

Additional observations from a re-analysis of the deposited data

How the results depend on the processing

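The 3 members called were also called, and no others, with DESeq2 size factors, without a filter, with a stricter filter, with DESeq2's test, limma-voom, and limma run on the values normalized by the authors. Without scaling 1 member was higher, at a false discovery rate of 0.1 there were 4, and with the sex block 6 (Mrpl12, Mrpl17, Mrpl2 and Mrps16 beside Mrps6 and Mrps34). The sex block called 32% of all genes and 9.09% of the members, against 22.2% and 3.9% without it. With a library left out, 0 to 4 members were higher and 0 to 1 lower, and 0 passed by edgeR without KO 51 or without KO 63, where 2 and 3 had an unadjusted p under 0.05. Over all genes, 1616 passed without KO 51, 1277 without KO 63, 2773 without WT 55 and 3229 without WT 69, against 2992 with all libraries. The median log2 fold change of the members stayed between 0.09 and 0.16, and that of all genes between -0.04 and 0.03. For the small subunit it was 0.10 to 0.21 with a library left out. Of the 93 other genes, those higher were 0 without scaling, 4 without a filter, 5 with DESeq2, 6 at a false discovery rate of 0.1 and 5 with the sex block, and those lower 8 with each of these last 2. With a library left out 0 to 2 were higher and 1 to 5 lower. Signs reversed only for genes that did not pass, each with a library left out: Mrps21 (-0.12 to 0.046, above 0 without WT 69), Mrpl47 (-0.13 to 0.18, below 0 without WT 69 at -0.07 and without KO 63), Mrps25 (-0.031 to 0.11, below 0 without WT 55 at -0.016 and without KO 63), Yy1 (-0.14 to 0.032, above 0 without WT 69) and Esrra (-0.30 to 0.13, above 0 without WT 55). The cause of these changes was not tested. With 1 library of a genotype, it is assumed to vary like the others. No paired analysis was possible from the labels because the genotypes share no mouse number. The sex block, with 1 mouse per sex in each genotype, matches each KO mouse with the WT mouse of its sex, as read from Xist.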
